A study of Mus musculus with 2 samples.

Results

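The 60 spots described here carried the highest combined signal of Nr4a2, Gnb4, Ntng2 and Synpr in 2 sections of mouse brain, out of 5561 spots with at least 500 UMIs. A UMI (unique molecular identifier) tags a single captured RNA molecule, and a spot of the 10x Visium array records the RNA of a small area of tissue that can hold several cells. The score of a spot was the mean over the 4 genes of ln(1 + 10000 × UMIs of the gene / all UMIs of the spot). The 30 highest-scoring spots of each section were taken, 30 of 3030 in section 1 and 30 of 2531 in section 2. They were proposed as spots of the claustrum, the endopiriform nucleus and cortical layer 6b. Markers of these regions outside the score did not bear this label out for the spots as chosen, and they are called high-score spots throughout.

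Both sections were wild-type C57BL/6 brain taken at ZT12, cut fresh frozen at 10 µm, and labelled as replicates 1 and 2 of a single group. There was no treated group, and the labels do not say whether the sections came from separate animals. The comparisons are therefore between sets of spots within each section: high-score spots against 30 layer 6 spots, against 30 superficial cortex spots, and against all other spots (3000 and 2501). The layer 6 set was the 30 spots with the highest score of Rprm, Vxn, Syt6 and Tle4 among the others. The superficial set was chosen likewise by Lamp5, Cux2, Rasgrf2 and Otof among the spots then left.

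The files held 58662871 UMIs in section 1 and 55851559 in section 2, over 32285 genes. High-score spots held 541972 and 526603 of these. Their median was 17521 UMIs in section 1 and 16410.5 in section 2, against 18127 and 21578 in all other spots. Mitochondrial genes took 13.6% and 13.2% of UMIs in high-score spots, against 14.9% and 14.3% in the others. The 2 sections shared 1965 barcodes, which mark positions on the array, but no high-score spot of section 1 had the barcode of a high-score spot of section 2.

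The claustrum is a thin sheet of mostly glutamatergic neurons beneath the insular cortex, and the endopiriform nucleus continues it ventrally beneath the piriform cortex. Layer 6b, the deepest and thinnest layer of the cortex, retains neurons of the embryonic subplate. Nr4a2 (Nurr1), an orphan nuclear receptor of the NR4A family, is a marker of all of them and is also expressed in midbrain dopamine neurons. Gnb4 encodes a G protein beta subunit enriched in the claustrum. Ntng2 encodes netrin-G2, a membrane-anchored adhesion protein of presynaptic axons. Synpr encodes synaptoporin, a synaptic vesicle protein of the synaptophysin family that is abundant in hippocampal mossy fibres and in many interneurons. On GRCm38.p6, RefSeq places Nr4a2 on chromosome 2 from 57106830 to 57124003 and Ntng2 on chromosome 2 from 29194726 to 29248099. Gnb4 lies on chromosome 3 from 32578587 to 32616673, and Synpr on chromosome 14 from 13284780 to 13615469.

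The 4 score genes chose the spots, so their levels are a description and no test of them is given. Synpr took most of the score, on average 57.2% of it in section 1 and 54.3% in section 2. Gnb4 took 25.4% and 30.1%, Nr4a2 16.9% and 15.6%, and Ntng2 0.594% and 0%. High-score spots held 153 and 147 Synpr UMIs, or 282 and 279 UMIs per 1000000 UMIs of the set (CPM), against 67.2 and 86.7 CPM in all other spots. Synpr was counted in 29 of 30 spots in each section, with a median of 3 and 4 UMIs and up to 18 and 15 in a spot.

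Gnb4 was at 59.0 and 94.9 CPM in high-score spots, against 14.4 and 20.4 CPM in all other spots. These levels rested on 32 and 50 UMIs, in 23 and 28 spots, with at most 3 and 4 in a spot. Nr4a2 was at 68.3 and 45.6 CPM in high-score spots, against 13.0 and 9.24 CPM in the others. It was counted 37 and 24 times, in 18 spots of each section, with at most 5 and 2 UMIs in a spot. In each section, 12 of 30 high-score spots thus had no Nr4a2 UMI.

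Ntng2 was almost absent from both sections, with 11 UMIs in all kept spots of each. A single UMI fell in the high-score spots of section 1 and none in those of section 2, where a count of 0 allows up to 5.70 CPM (3 counts of the set's total). The netrin-G2 gene therefore played almost no part in the choice, and 29 and 30 of the spots stayed when it was left out of the score. No high-score spot carried all 4 genes. Nr4a2, Gnb4 and Synpr were counted together in 13 high-score spots of section 1 and 15 of section 2, and 3 spots of section 1 carried a single score gene.

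The score did not fall off sharply at the border of the set. It was highest at 0.672 in section 1 and 0.840 in section 2, and at rank 30 it was 0.510 in both. The next spot, at rank 31, had 0.510 in section 1 and 0.509 in section 2. Section 1 held 4 high-score spots under 5000 UMIs and section 2 held 1. The highest-scoring spot of section 1 had 729 UMIs in all and owed its rank to 1 Synpr UMI, and the next had 770 UMIs and 1 Gnb4 UMI.

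**Figure D1:**
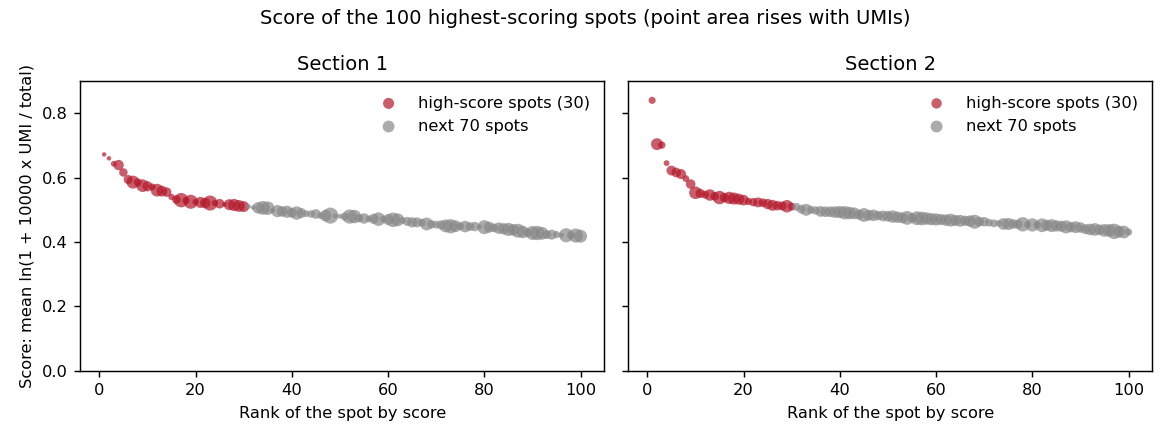
Score (mean of ln(1 + 10000 × UMI / total) over the 4 genes, vertical axis) of the 100 highest-scoring spots of each section by rank, with the area of a point rising with the spot's UMIs. The 30 high-score spots (red) run into the next 70 (grey) with no step, at a score of 0.510 in both sections.

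Each score gene was then read in spots that it had not helped to choose. For each gene the 30 highest spots were chosen again by the other 3 genes, and the gene's own level was read there with an exact Poisson interval, which covers counting error only. Nr4a2 was at 10.9 CPM (95% interval 3.54 to 25.4) in section 1 and 10.2 CPM (3.73 to 22.1) in section 2, against 13.5 and 9.57 CPM in the spots not chosen. Gnb4 was at 12.7 CPM (5.48 to 25.0) and 15.9 CPM (7.92 to 28.4), against 14.9 and 21.1 CPM. Synpr was at 52.6 CPM (31.7 to 82.2) and 110.3 CPM (82.6 to 144), against 69.3 and 88.3 CPM. In all 6 of these readings the level outside the chosen spots lay inside the interval, so no enrichment of a score gene by the other 3 was detectable at this depth. Over all kept spots the pairwise correlation of the 4 log values lay between -0.027 and 0.068, in counts too sparse to read an order from.

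**Figure D2:**
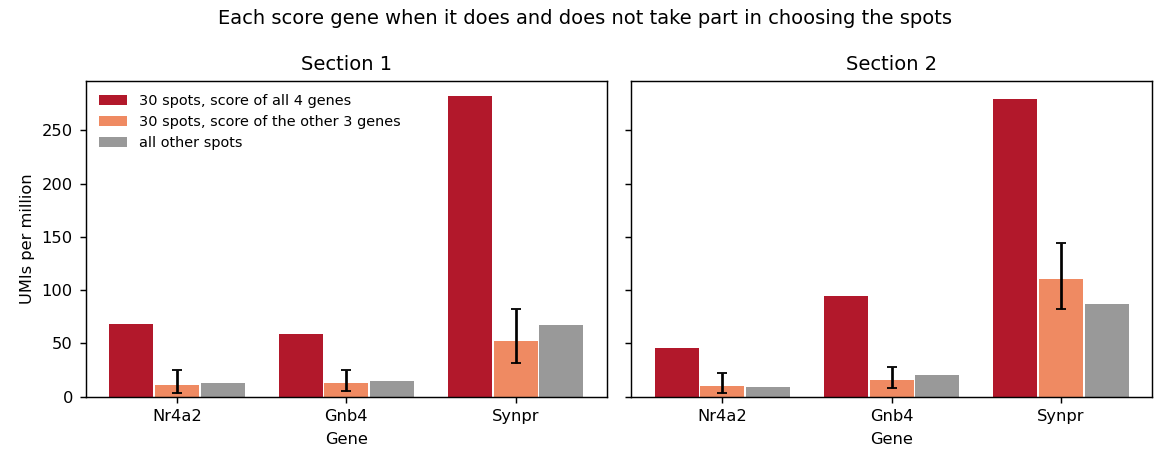
Level of 3 score genes (CPM, from 0) in the 30 spots chosen by all 4 genes (dark red), in the 30 spots chosen by the other 3 genes (orange, with exact Poisson 95% intervals) and in all spots outside the 30 chosen by all 4 genes (grey). Synpr stood at 282 and 279 in the first set, and at 52.6 and 110.3 once it did not take part in the choice.

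Markers of the labelled regions that were outside the score did not set the high-score spots apart. Counts were summed per section and spot set and tested with edgeR's quasi-likelihood test. The Benjamini-Hochberg adjustment was over 15739 genes, of which 15736 were outside the score. At an adjusted p under 0.05 and at any fold, 92 genes (0.585%) were higher in high-score spots than in all other spots and 103 (0.655%) were lower. Of 7 claustrum and endopiriform genes none was called in either direction, and their median log2 fold change was 0.00, beside -0.06 over all genes tested. Another marker of that list, Smim32, was not analysed here. Of 6 layer 6b and subplate genes none was called either, with a median of 0.24. This depended on Synpr: in the 30 spots per section chosen without it, which kept 4 and 13 of the high-score spots, that median was 1.07. There Cplx3 was higher by 1.73 on the log2 scale (edgeR, adjusted p = 0.000164) and Nxph3 by 1.17 (adjusted p = 0.0167), while the other 4 were not called.

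Latexin (Lxn), a carboxypeptidase inhibitor that labels claustral and endopiriform neurons, was at 79.3 and 70.3 CPM in high-score spots, against 79.7 and 67.5 CPM in all other spots. The sections' values overlapped and the log2 fold change was -0.05 ± 0.17 (SE, 2 sections). Oprk1, the kappa opioid receptor, was at 1.85 and 7.60 CPM, against 2.19 and 3.49 CPM. Nr2f2, a nuclear receptor of ventral and caudal cortex, was at 57.2 and 55.1 CPM, between the 38.0 and 70.1 CPM of the other spots.

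Slc30a3, the transporter that loads zinc into glutamatergic vesicles, came nearest to a call among these 7 genes. It was at 105 and 96.8 CPM in high-score spots, against 65.4 and 68.6 CPM in the others, a log2 difference of 0.52 ± 0.16 (edgeR, adjusted p = 0.0755). Gng2, a G protein gamma subunit, was at 212 and 186 CPM against 142 and 160 CPM (0.33 ± 0.12, edgeR, adjusted p = 0.224). For both genes the 2 high-score values lay above both values of the other spots. Nnat, neuronatin, was at 382 and 291 CPM against 303 and 433 CPM, with opposite signs in the sections. Car3, a carbonic anhydrase, was near 0 in both sets, at 0 and 1.90 CPM against 1.31 and 0.669 CPM.

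Among layer 6b genes, Cplx3 (complexin 3, a regulator of vesicle fusion) was at 11.1 and 28.5 CPM in high-score spots, against 10.5 and 12.9 CPM in all other spots. Ccn2 (connective tissue growth factor, the classical layer 6b marker) was at 3.69 and 17.1 CPM, against 6.37 and 7.23 CPM. Both stood above the other spots clearly in section 2 alone, and neither was called. The neurexophilin gene Nxph4 was at 18.5 and 15.2 CPM against 17.7 and 12.6 CPM, and Nxph3 at 27.7 and 32.3 CPM against 21.4 and 21.6 CPM. The log2 fold changes of these 4 genes were 0.67 ± 0.36, 0.52 ± 0.50, 0.08 ± 0.37 and 0.40 ± 0.29, in that order. Hs3st4, a heparan sulfate sulfotransferase, was at 70.1 and 55.1 CPM against 51.9 and 63.6 CPM. Moxd1, a monooxygenase, was at 1.85 and 3.80 CPM against 4.80 and 7.52 CPM.

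All kept spots were also ranked by each list's score and the top 5% marked. Among the 30 high-score spots, 4 of section 1 and 2 of section 2 fell in the top 5% for claustrum and endopiriform genes, where 5% of 30 spots is 1.5. For layer 6b genes there were 1 and 4. For the list of dentate and CA field genes of the hippocampus there were 6 in each section, the most of the anatomical lists. No high-score spot reached the top 5% for thalamus genes.

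**Figure D3:**
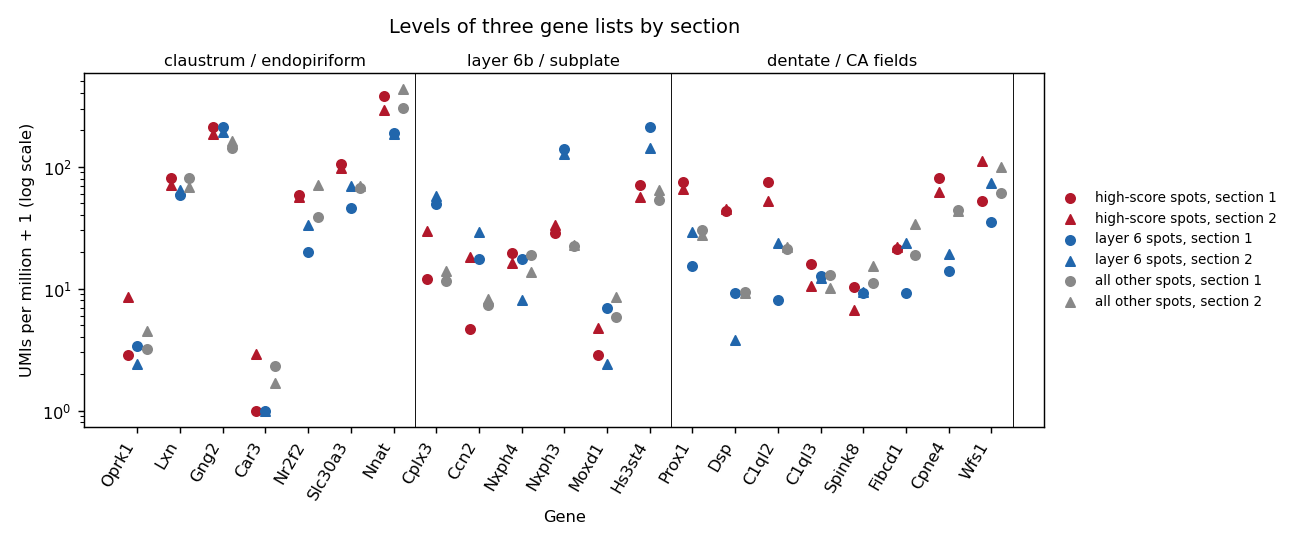
Levels (CPM + 1, log scale) of the claustrum and endopiriform, layer 6b and subplate, and dentate and CA field genes in high-score spots (red), layer 6 spots (blue) and all other spots (grey), with circles for section 1 and triangles for section 2. The red points of Dsp, Prox1 and C1ql2 lie above the others in both sections, and those of the first list mostly lie among the grey points.

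Outside the score genes, 26 genes were at least 2-fold higher in high-score spots than in all other spots (0.165% of 15736) and 16 were at least 2-fold lower (0.102%). These genes did not choose the spots but were counted in them, so a call says that a gene shares spots with the score genes. The spread in this fit was pooled wholly over genes, so a gene can be called on a single section. Of the 26 higher genes, 22 had the same sign in both sections. The other 4 were Pmch, Nps, Cartpt and Npy2r, named after their values were seen. For Pmch and Nps the negative sign of section 2 came from 0 UMIs in high-score spots and shows no direction. With library totals alone in place of TMM factors, 33 genes were higher and 9 lower. DESeq2 called 10 genes higher and 0 lower at that fold (315 genes at an unadjusted p under 0.05). In a spot, more cells of a type and more RNA per cell cannot be told apart.

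The genes that led were those of dentate granule cells, the principal neurons of the hippocampal dentate gyrus. Dsp encodes desmoplakin, a desmosome protein whose RNA marks these cells in the adult mouse forebrain. It was at 42.4 and 43.7 CPM in high-score spots, against 8.43 and 8.22 CPM in all other spots (log2 fold change 2.30 ± 0.29, edgeR, adjusted p = 7.22e-12). Prox1, the homeobox factor that specifies granule cells, was at 73.8 and 64.6 CPM against 29.3 and 26.6 CPM (1.23 ± 0.21, adjusted p = 3.67e-06). C1ql2, a secreted C1q-like protein of mossy fibre synapses, was at 73.8 and 51.3 CPM against 20.1 and 20.8 CPM (1.54 ± 0.23, adjusted p = 2.06e-08). In each of these genes both sections of high-score spots lay above both sections of the other spots. In the 30 spots per section chosen without Synpr none of the 3 was called, with log2 fold changes of 1.27 for Dsp, -0.29 for C1ql2 and -0.23 for Prox1 (edgeR, adjusted p = 0.534 for Dsp).

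The remaining 5 dentate and CA field genes were not called. Cpne4, a copine, was at 79.3 and 60.8 CPM against 42.9 and 42.5 CPM (0.64 ± 0.20, edgeR, adjusted p = 0.0723). C1ql3, Spink8, Fibcd1 and Wfs1, of which the last 3 mark CA1 pyramidal cells, had log2 fold changes between -0.78 and 0.13. The median of the 8 genes was 0.39. RefSeq places Dsp on chromosome 13 from 38151294 to 38198577, Prox1 on chromosome 1 from 190118035 to 190170827 and C1ql2 on chromosome 1 from 120340582 to 120343174 of GRCm38.p6.

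Several other genes were higher by similar amounts. Bhlhe22, a basic helix-loop-helix factor of forebrain projection neurons, was at 92.3 and 62.7 CPM in high-score spots against 32.5 and 33.9 CPM in all other spots (1.15 ± 0.20, edgeR, adjusted p = 4.65e-06). It was the called gene of the 5 on the amygdala and piriform list. Limd2, a LIM domain protein, was at 124 and 144 CPM against 56.1 and 69.4 CPM (1.02 ± 0.15, adjusted p = 4.88e-09). Dgkh, a diacylglycerol kinase, was at 129 and 116 CPM against 58.4 and 57.5 CPM (1.01 ± 0.15, adjusted p = 5.15e-08).

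The presynaptic glutamate receptor gene Grm2 was at 35.1 and 38.0 CPM in high-score spots against 17.0 and 14.3 CPM in all other spots (1.15 ± 0.28, edgeR, adjusted p = 0.00693). Epha7, an ephrin receptor, was higher by 1.04 ± 0.20 on the log2 scale and Slit1, an axon guidance ligand, by 1.08 ± 0.24. Anxa11, an annexin, was higher by 1.04 ± 0.26, and Plekha2, a phosphoinositide-binding protein, by 1.02 ± 0.29. The AMPA receptor subunit gene Gria1 was at 365 and 340 CPM against 225 and 265 CPM (0.46 ± 0.10, adjusted p = 0.00107). Grm2 and Gria1 were the 2 genes called of 22 glutamate receptor genes, whose median was 0.03.

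A minority of the high-score spots carried most of the dentate signal. In section 1, Dsp was counted 23 times in 6 spots, at ranks 9, 12, 13, 22, 23 and 29. In section 2 it was counted 23 times in 7 spots, at ranks 2, 7, 15, 17, 18, 24 and 29. The 6 spots of section 1 held 34 of the 40 Prox1 UMIs, 34 of the 40 C1ql2 UMIs and 58 of the 153 Synpr UMIs of the set. The 7 spots of section 2 held 21 of 34 Prox1 UMIs, 21 of 27 C1ql2 UMIs and 63 of 147 Synpr UMIs. The Dsp-bearing spots held 8 of 37 Nr4a2 UMIs in section 1 and 10 of 24 in section 2. Of all UMIs of the high-score spots they held 175470 of 541972 in section 1 and 179945 of 526603 in section 2. Synpr and Nr4a2 were thus not concentrated in them as Prox1 and C1ql2 were.

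Reading high-score spots with and without a Dsp UMI apart, a division made after the values were seen and not tested, showed which other genes sat in the Dsp-bearing spots. Not every such spot was rich in Prox1 and C1ql2. The spot at rank 24 of section 2 held 1 Dsp UMI and none of either. Prox1 was at 194 and 117 CPM in spots with Dsp, against 16.4 and 37.5 CPM in those without. C1ql2 was at 194 and 117 CPM with Dsp, against 16.4 and 17.3 CPM without. Epha7 was at 171 and 172 CPM against 35.5 and 20.2 CPM, Limd2 at 234 and 278 CPM against 70.9 and 75 CPM, and Dgkh at 291 and 178 CPM against 51.8 and 83.7 CPM.

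Rgs9 and Penk ran the other way. Rgs9, a regulator of G protein signalling abundant in striatal projection neurons, was at 39.9 and 38.9 CPM in spots with a Dsp UMI and at 65.5 and 153 CPM in those without. The enkephalin precursor gene Penk was at 62.7 and 139 CPM with Dsp and at 147 and 736 CPM without. Mbp, the myelin basic protein gene, was at 2291 and 2951 CPM with Dsp and at 5995 and 7226 CPM without. Synpr was high on both sides, at 331 and 350 CPM with Dsp and 259 and 242 CPM without.

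**Figure D4:**
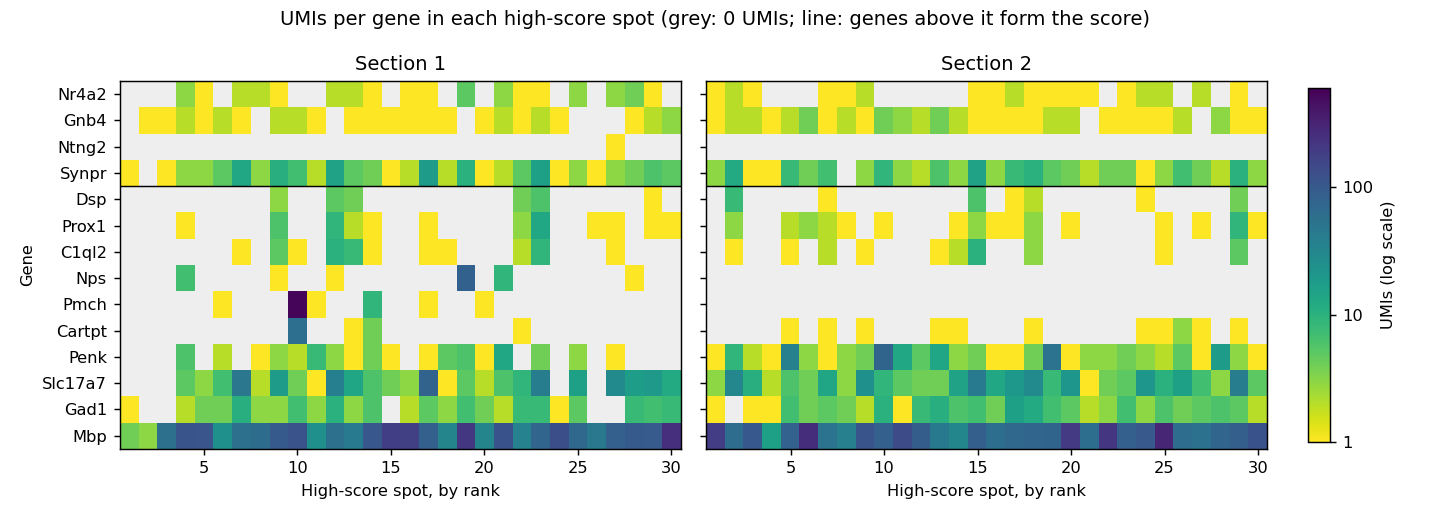
UMIs of 14 genes (rows, colour on a log scale, grey for 0) in each of the 30 high-score spots of section 1 (left) and section 2 (right), ordered by rank. Above the line are the score genes, and below it Dsp, Prox1 and C1ql2 share a few spots, while Nps, Pmch and Penk peak in others, with 546 Pmch UMIs at rank 10 of section 1.

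Other spots carried peptides of other regions. Pmch, the precursor of melanin-concentrating hormone made in the lateral hypothalamus, was counted 559 times in the high-score spots of section 1. The spot at rank 10 held 546 of these, the most of any spot in that section, and it also held 58 of the 64 Cartpt UMIs. Cartpt encodes the CART peptide, which many of the same hypothalamic neurons make. Pmch was not counted in the high-score spots of section 2, where all kept spots held 17 of its UMIs. It was at 0.307 CPM in the other spots, below the 5.70 CPM that a 0 allows, so this 0 shows no difference. Cartpt was at 118 and 24.7 CPM in high-score spots, against 7.54 and 59.6 CPM in all other spots, so the sections pointed opposite ways.

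Nps, the precursor of neuropeptide S made by small groups of brainstem and amygdala neurons, was counted 101 times in the high-score spots of section 1, out of 248 in that section. The spots at ranks 19, 21 and 4 held 98 of them, with 82 at rank 19. The same 3 spots held 5, 3 and 3 Nr4a2 UMIs in that order. In section 2, Nps was not counted in high-score spots, but all kept spots there held only 6 Nps UMIs, too few to show a difference. RefSeq places Nps on chromosome 7 from 135268619 to 135272942 and Pmch on chromosome 10 from 88091072 to 88092374.

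Some striatal genes were higher in high-score spots as well. Rgs9 was at 57.2 and 114 CPM in high-score spots against 15.5 and 61.9 CPM in all other spots (1.13 ± 0.19, edgeR, adjusted p = 2.87e-06), and Penk at 120 and 532 CPM against 74.8 and 318 CPM (0.64 ± 0.11, adjusted p = 3.35e-06). Of 280 Penk UMIs in the high-score spots of section 2, 167 lay in 3 spots, at ranks 10, 19 and 5. In spots chosen without Gnb4, the log2 fold changes of Rgs9 and Penk were -0.17 and -0.38. Both genes were called, of 9 on the striatum list, whose median was 0.50. The signal-transduction gene Ppp1r1b (DARPP-32) was at 70.1 and 194 CPM against 49.4 and 143 CPM (0.38 ± 0.15, adjusted p = 0.272).

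Genes of the GABAergic list differed from all other spots in both directions. The somatostatin gene Sst was at 504 and 594 CPM in high-score spots against 294 and 534 CPM in all other spots (0.38 ± 0.09, edgeR, adjusted p = 0.00212). The Sst gap lay mostly in section 1, with log2 fold changes of 0.72 in section 1 and 0.06 in section 2. The direction of Sst turned in the 15 highest spots per section (-0.11) and in spots chosen without Nr4a2 (-0.23). Pvalb, which encodes parvalbumin and is also on the cerebellar cortex list, was at 203 and 165 CPM against 395 and 230 CPM (-0.81 ± 0.11, adjusted p = 9.21e-10). Slc32a1, the vesicular GABA transporter gene, was also lower (log2 fold change -0.42 ± 0.12, edgeR, adjusted p = 0.0358). The other 7 of 10 GABAergic genes were not called, and the list's median was -0.29. Against layer 6 spots 0 of 9 tested were called, and Pvalb was at 187 and 156 CPM in those spots.

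Genes of thalamic relay neurons were lower in high-score spots than in all other spots. Called were 4 of 7, with a list median of -0.86. Against layer 6 and superficial spots 0 of 7 were called, with medians of 0.54 and 0.35. Tnnt1, a troponin gene expressed in the thalamus, was at 9.23 and 47.5 CPM against 53.8 and 80.3 CPM in all other spots (-1.34 ± 0.24, edgeR, adjusted p = 6.42e-06). Tcf7l2, a Wnt pathway factor of the thalamus, was at 70.1 and 58.9 CPM against 134 and 89.5 CPM (-0.86 ± 0.17, adjusted p = 0.00018). Prkcd, a protein kinase C, was at 53.5 and 142 CPM against 168 and 150 CPM, so its difference rested mainly on section 1.

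Ntng1, the netrin-G1 gene and closest relative of Ntng2, was among these thalamic genes. It was at 31.4 and 41.8 CPM in high-score spots against 63.6 and 68.7 CPM in all other spots (-0.93 ± 0.22, edgeR, adjusted p = 0.00326). The genes of netrin-G ligands, Lrrc4c, Lrrc4 and Lrrc4b, were not called, with log2 fold changes of 0.01 ± 0.22, 0.12 ± 0.27 and -0.09 ± 0.13.

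The other relatives of the score genes were not called against all other spots either. Nr4a1 was at 29.5 and 26.6 CPM against 60.6 and 31.9 CPM (-0.78 ± 0.26, edgeR, adjusted p = 0.12) and Nr4a3 at 24.0 and 22.8 CPM against 19.4 and 19.2 CPM. Syp, the synaptophysin gene, was at 589 and 739 CPM against 598 and 861 CPM (-0.20 ± 0.08, adjusted p = 0.323), and 0 of 6 tested genes of the synaptophysin family were called. None of 13 tested genes of G protein beta and gamma subunits was called, with a median of -0.13.

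The 10 named genes with the largest lower values included Pcp2, a Purkinje cell gene, at 27.7 and 0 CPM against 78.4 and 1.14 CPM (-1.58 ± 0.34, edgeR, adjusted p = 0.000819). In section 2 its count of 0 allows up to 5.70 CPM, above the 1.14 CPM of the other spots, so that section shows no direction. The log2 fold change of Pcp2 was 1.15 in spots chosen without Synpr. Tac2, the neurokinin B precursor gene, was at 3.69 and 7.60 CPM against 15.1 and 20.5 CPM (-1.74 ± 0.50, adjusted p = 0.0407). Patj, a cell polarity scaffold gene, was at 18.5 and 19.0 CPM against 54.5 and 40.8 CPM. Sox2, a factor of glia and progenitors, was at 9.23 and 19.0 CPM against 34.4 and 35.1 CPM. Hspb8, Gm26782, Myoc, Aebp1 and Kcnk3 had log2 fold changes between -1.57 and -1.17.

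Haemoglobin genes were lower in high-score spots than in all other spots, with 4 of 5 red blood cell genes called and a median of -0.92. Against layer 6 and superficial spots 0 of 4 tested were called, with medians of -0.01 and 0.17. Hbb-bs was at 256 and 642 CPM against 849 and 723 CPM in all other spots, so the gap lay mostly in section 1. Of 8 astrocyte genes, the water channel gene Aqp4 was lower, at 66.4 and 38.0 CPM against 121 and 72.6 CPM (-0.96 ± 0.19, edgeR, adjusted p = 7.86e-05), and the growth factor receptor gene Fgfr3 was lower too (-0.63 ± 0.16). Neither astrocyte gene was called against layer 6 or superficial spots. None of 9 oligodendrocyte genes was called against all other spots, and their median was -0.06. The potassium channel genes Kcna2, Kcnc1 and Kcnc2 were lower, with log2 fold changes of -0.72, -0.48 and -0.63, and were 3 of 18 on their list.

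Compared with layer 6 spots, the high-score spots were lower in some deep cortical genes and higher in genes of the dentate gyrus. Of 9249 genes tested, 31 (0.335%) were at least 2-fold higher in high-score spots and 62 (0.67%) were at least 2-fold lower, each with the same sign in both sections. At any fold, 51 (0.551%) were higher and 103 (1.11%) lower. The layer 6 spots were deeper, so that high-score spots had medians of 17521 and 16410.5 UMIs against 30268 and 24084.5. With all sums thinned to the smallest total, 60 genes were higher and 83 lower.

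Of the layer 6b and subplate list, Nxph3 and Hs3st4 were lower in high-score spots than in layer 6 spots. The layer 6 spots were chosen by Rprm, Vxn, Syt6 and Tle4, so this comparison cannot tell layer 6b from the rest of layer 6. Nxph3 was at 27.7 and 32.3 CPM against 139 and 126 CPM in layer 6 spots (log2 fold change -2.15 ± 0.24, edgeR, adjusted p = 0.000145). Hs3st4 was at 70.1 and 55.1 CPM against 209 and 140 CPM (-1.48 ± 0.22, adjusted p = 0.00187). In all other spots Nxph3 was at 21.4 and 21.6 CPM and Hs3st4 at 51.9 and 63.6 CPM, so the layer 6 spots also stood above them. Cplx3 was at 11.1 and 28.5 CPM against 48.4 and 56.2 CPM (-1.42 ± 0.37, adjusted p = 0.0632). The median of the 5 tested layer 6b genes was -1.42, beside 0.00 over all genes.

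Tbr1, a T-box factor of deep-layer neurons, was at 64.6 and 70.3 CPM against 220 and 169 CPM (-1.53 ± 0.23, edgeR, adjusted p = 0.00195). Slc17a7, the vesicular glutamate transporter gene of cortical excitatory neurons, was at 712 and 725 CPM in high-score spots against 1331 and 1406 CPM in layer 6 spots (-0.94 ± 0.23, adjusted p = 0.0441). In all other spots Tbr1 was at 58.0 and 42.6 CPM and Slc17a7 at 613 and 624 CPM. Neither gene was called against those spots, and the layer 6 spots stood above them. Against layer 6 spots, the 5 genes with the largest lower values were Col5a1, Trbc2, Myl4, Rai14 and Arhgap25, between -2.93 and -2.56 on the log2 scale. Trbc2, listed as a T cell receptor constant gene, was at 18.5 and 11.4 CPM against 116 and 95.5 CPM (-2.81 ± 0.30, adjusted p = 9.07e-05).

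No claustrum or endopiriform gene was called against layer 6 spots among the 5 tested, with a median of 0.84. Nnat was at 382 and 291 CPM against 187 and 185 CPM (0.85 ± 0.21, edgeR, adjusted p = 0.0549) and Nr2f2 at 57.2 and 55.1 CPM against 18.9 and 32.3 CPM (1.15 ± 0.32, adjusted p = 0.0812). For both genes the high-score values lay above both layer 6 values. Lxn was at 79.3 and 70.3 CPM against 57.9 and 63.2 CPM (0.30 ± 0.22, adjusted p = 0.65).

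Genes of dentate granule cells were again among those with the largest higher values against layer 6 spots. Dsp was higher by 2.87 ± 0.47 on the log2 scale (edgeR, adjusted p = 0.00441), C1ql2 by 2.13 ± 0.42 and Neurod1, a factor of granule neurons, by 2.13 ± 0.45. Neurod1 rested on 24 and 9 UMIs and was not called against all other spots (0.57 ± 0.29, edgeR, adjusted p = 0.607). It was at 44.3 and 17.1 CPM in high-score spots, 8.27 and 5.62 CPM in layer 6 spots and 27.5 and 11.9 CPM in all other spots. Called were 4 of 7 tested dentate and CA field genes, with a median of 1.73. Cpne4 was at 79.3 and 60.8 CPM against 13.0 and 18.3 CPM (2.17 ± 0.32, adjusted p = 0.00163). In section 1, 17 of its 43 UMIs lay in the spot at rank 17, which held no Dsp UMI. Bhlhe22 was at 92.3 and 62.7 CPM against 11.8 and 22.5 CPM (2.20 ± 0.37, adjusted p = 0.00511). Ngb, the neuroglobin gene, was higher by 2.48 ± 0.46, and Kctd4 by 1.86 ± 0.39. Gpx3, a secreted glutathione peroxidase, was higher by 2.0 ± 0.36. Its highest count was 13, in the Nps-rich spot at rank 19 of section 1.

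The peptide gene Penk was higher in high-score spots than in layer 6 spots by 1.55 ± 0.31 on the log2 scale (edgeR, adjusted p = 0.0137) and Gria1 by 0.68 ± 0.15. Of 9 oligodendrocyte genes 3 were higher, among them the myelin genes Mbp and Mobp by 0.41 and 0.47 on the log2 scale. Mbp was at 4795 and 5765 CPM against 3601 and 4321 CPM.

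Immediate early genes, which neurons switch on within minutes of activity, were lower in high-score spots than in layer 6 spots. Called were 6 of 15 tested, with a median of -1.44. Arc, a regulator of AMPA receptor trafficking, was at 42.4 and 13.3 CPM against 228 and 87.1 CPM (-2.51 ± 0.24, edgeR, adjusted p = 4.95e-05). Egr1 was at 111 and 110 CPM against 458 and 198 CPM (-1.52 ± 0.22, adjusted p = 0.00137). Nr4a1, the relative of the score gene Nr4a2, was at 29.5 and 26.6 CPM against 169 and 36.5 CPM (-1.82 ± 0.34, adjusted p = 0.00967), so its gap was mostly that of section 1. Fos, Junb and Dusp1 were lower, with log2 fold changes of -1.88, -1.71 and -1.87. Jun, on the same list, was at 42.4 and 68.4 CPM against 31.9 and 22.5 CPM and was not called (0.97 ± 0.33, adjusted p = 0.179). Against all other spots, Arc alone of 16 was called (-0.93 ± 0.25, adjusted p = 0.025).

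**Figure D5:**
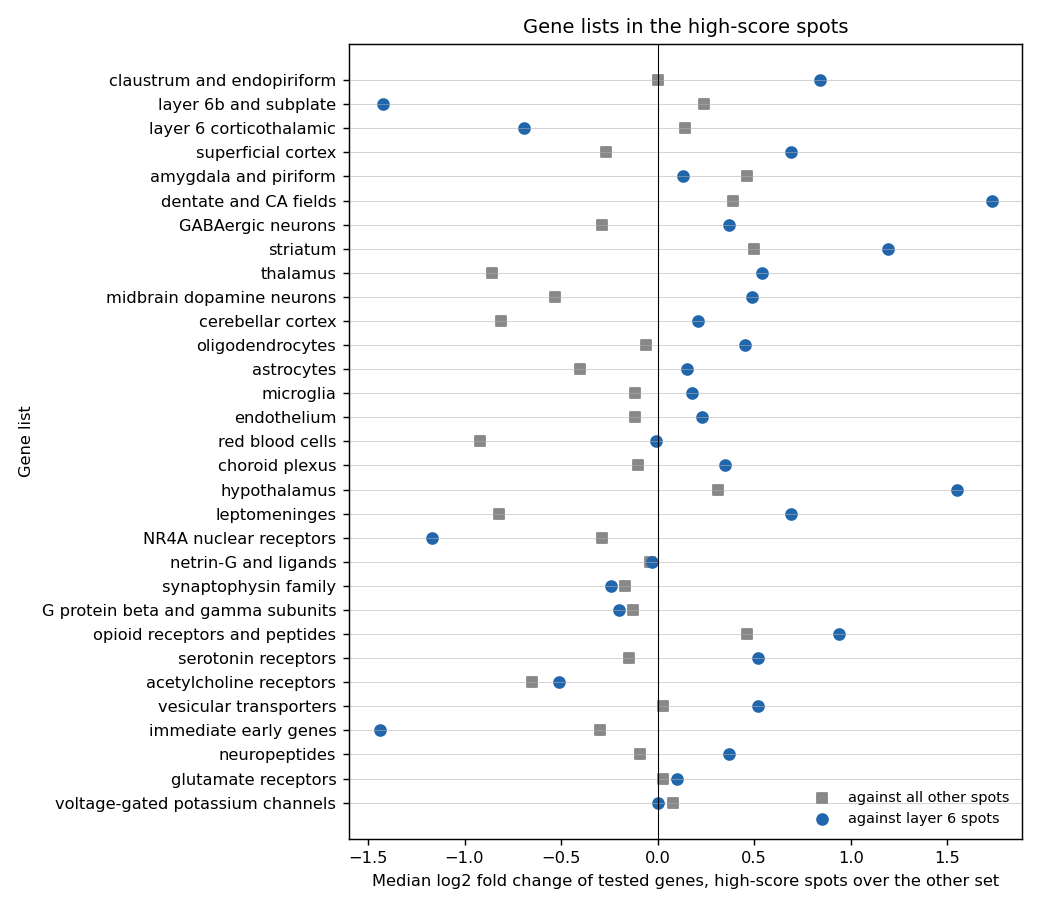
Median log2 fold change of the tested genes of each of 31 lists, high-score spots over layer 6 spots (blue circles) or over all other spots (grey squares). The layer 6b and the immediate early genes stand lowest against layer 6 spots, at -1.42 and -1.44, and the dentate and CA field genes highest, at 1.73.

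The comparison with superficial cortex spots was limited by that set. In section 2 it carried striatal genes, with Ppp1r1b at 587 CPM and Slc17a7 at 444 CPM, while in section 1 these were at 56.3 and 1163 CPM, so its name did not hold in section 2. Of 9249 genes, 61 (0.66%) were at least 2-fold higher in high-score spots than in these spots and 40 (0.432%) were at least 2-fold lower. At any fold, 86 (0.93%) were higher and 67 (0.724%) lower. Dsp was at 42.4 and 43.7 CPM against 2.35 and 1.27 CPM (4.42 ± 0.58, edgeR, adjusted p = 0.000415), and Prox1 at 73.8 and 64.6 CPM against 19.9 and 8.87 CPM (2.22 ± 0.37, adjusted p = 0.00383).

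Oligodendrocyte genes were higher in high-score spots than in superficial spots, 8 of 9 on the list, with a median of 1.21. Mbp was at 4795 and 5765 CPM against 1806 and 2528 CPM (1.28 ± 0.09, edgeR, adjusted p = 1.31e-06). Other higher genes named by the rule were C1ql2, Arhgap15, Itga7, Spsb1, Rimkla, Pcdh20 and Tanc1, by 1.79 to 2.55. Ankrd63, Epop, Fos, Rasgef1c and Nr4a1 were lower, with log2 fold changes between -2.43 and -1.88.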

How the data were processed

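The deposited values are UMI counts for each gene in each spot, whole and not normalized by the authors. Per the submitters' processing notes, Space Ranger 2.0.1 and mm10 were used for both sections, while per the file headers section 1 was made with version 1.2.2 and section 2 with 2.0.1, so version and section cannot be told apart. Spot positions were not used. The members and gene lists were chosen with earlier results of these data known. Counts of each spot set were summed within each section, because spots of a section are no replicates, and fitted with edgeR 4.0.16 (R 4.3.3): TMM factors, filterByExpr, a section term and quasi-likelihood F tests, adjusted by Benjamini-Hochberg. The fit against all other spots used 4 sums (1 residual degree of freedom, with the spread taken wholly from all genes). The fit with layer 6 and superficial spots used 6 sums (2 residual and 14.61 prior degrees of freedom). P-values measure the spread between these sections. Against all other spots that spread was pooled over genes, so a gene's own disagreement between sections did not enter its p-value. In the other fit it was drawn mostly from all genes. SE is the size of the log2 fold change over the square root of F, and rests on the same spread. Score genes of the sets compared were left out of counts of calls, but those that passed the filter stayed in the fits and the adjustment.

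Genes were called at an adjusted p under 0.05. Those named were up to 20 rises and 10 falls against all other spots, and 10 and 5 against each cortical set, all at least 2-fold, of equal sign in the sections, with an average log2 CPM of 4 or more, plus up to 6 members of each list. Members of the lists on claustrum, layer 6b, netrin-G, NR4A and synaptophysin genes, and spot-level values of Pmch, Nps, Cartpt and Penk, were also given; the last 4 were singled out after their values were seen. CPM values are UMIs per 1000000 UMIs of the summed spots, without TMM factors. In simulated counts 49% of 2-fold and 99% of 4-fold changes were recovered against all other spots (15804 genes), and 53% and 99% against layer 6 spots (9225 genes). The changed genes were drawn from those with enough counts in the smallest sum. All genes had the same simulated spread, and spots and sections did not differ. The rates therefore do not cover scarce genes or RNA held by a single spot. No doublet caller was run. Genes were placed by RefSeq's GRCm38.p6 annotation. A few genes that met the naming rule are not reported here.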

Additional observations from a re-analysis of the deposited data

How the results depend on the processing

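Counts are given as at least 2-fold higher and at least 2-fold lower in high-score spots, and the cause of each change was not tested. Against all other spots (26 and 16 genes), DESeq2 1.42.0 gave 10 and 0 (315 genes at an unadjusted p under 0.05), and edgeR without the section term gave 0 and 0 (791 genes at an unadjusted p under 0.05). Totals in place of TMM factors gave 9 lower, and at least 10 counts in every sum gave 2 lower. The 15 highest spots gave 10 lower and the 60 highest 31 lower. Counts thinned to the smallest sum gave 3 and 0 over 8014 genes (641 at an unadjusted p under 0.05). The score without Nr4a2 gave 64 and 26, without Gnb4 76 and 60, and without Synpr 7 and 4. Leaving out a section leaves no residual degree of freedom in this fit, so no such count was made.

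Against layer 6 spots (31 and 62), DESeq2 gave 5 and 18, no section term 4 and 10, no filter 86 and 107, the 60 highest spots 84 higher, the score without Nr4a2 78 and 96, the score without Gnb4 69 higher, thinned counts 60 higher, and a robust fit, chosen after seeing the data, 53 higher. Leaving out the high-score sum of a section, with the lone sum left assumed to vary like the other sets, gave 25 to 96 higher and 30 to 112 lower, the lowest without replicate 1 and the highest without replicate 2. Against superficial spots (61 and 40), DESeq2 gave 14 and 9, no section term 3 and 0 (770 genes at an unadjusted p under 0.05), no filter 97 and 99, the 60 highest spots 28 and 20, the score without Nr4a2 34 higher, without Gnb4 39 higher and without Synpr 104 and 73. Leaving out a section gave 37 to 86 higher and 24 to 85 lower.

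With Synpr left out of the score, which kept 4 and 13 of the spots, these log2 fold changes against all other spots turned: C1ql2 -0.29, Prox1 -0.23, Slit1 -0.20, Anxa11 -0.02, Plekha2 -0.11, Dgkh -0.15, Pcp2 1.15, Gm26782 0.06, Penk -0.06, Cartpt -1.0, Pmch -0.62 and Arc 0.17. Without Gnb4, Rgs9 (-0.17), Penk (-0.38), Cartpt (-0.53) and Pmch (-0.13) turned. Sst was at -0.11 with 15 spots and -0.23 without Nr4a2. Leaving out a section, Cartpt was at -1.36 (without replicate 1) and 3.90 (without replicate 2), and Pmch at -2.45 and 6.07. The -2.45 of Pmch came from 0 UMIs in high-score spots and shows no direction. Of the 21 genes named against all other spots, 18 remained called with spots of at least 5000 UMIs, 7 with DESeq2, 2 with thinned counts and 2 without Synpr. Of the 15 named against layer 6 spots, 14 remained called with thinned counts and 5 with DESeq2. The median of the claustrum and endopiriform list against all other spots stayed between -0.13 and 0.42, and that of the layer 6b list between -0.30 and 1.07, the last without Synpr. Depth limits single spots, with at most 5 Nr4a2 and 4 Gnb4 UMIs in a high-score spot.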
